A study of Oryza sativa with 36 samples.

Results

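The 10 genes described here make or break down sucrose in rice: 5 sucrose-phosphate synthase genes (SPS1, SPS2, SPS6, SPS8 and SPS11), the gene of cytosolic fructose-1,6-bisphosphatase (cFBPase) and 4 sucrose synthase genes (SUS1 to SUS4). They were taken by gene ID from the 34623 genes that all 6 deposited tables share. Their levels were followed in flag leaves, the uppermost leaf of a rice stem, of 3 varieties of Oryza sativa: the hybrid WFYT025 and its parents CHT025 and WFB. Leaves came from day 10 and day 1 after flowering, from a crop grown as middle rice and one grown as early rice, here called the middle and the early season. Each of the 12 combinations of variety, season and day had 3 libraries, 36 in all. No agent or introduced allele was named for any group. The labels do not say whether the libraries of a group came from separate plants. Each p-value sets a difference against the scatter of libraries within the 12 groups, and that scatter may be technical. Season stands for all that differed between the crops, and any batch that changed with the crop cannot be told apart from it.

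In a green leaf, carbon fixed in the chloroplast leaves it as triose phosphate and is turned into sucrose in the cytosol. Cytosolic fructose-1,6-bisphosphatase makes fructose 6-phosphate, sucrose-phosphate synthase joins it to UDP-glucose, and sucrose-phosphatase releases sucrose, which the phloem carries to the filling grain. Sucrose synthase works mostly the other way in the plant, cleaving sucrose with UDP into UDP-glucose and fructose, and is best known from tissues that import sugar, such as the grain. The names used here follow the rice literature, with each gene's number among the SPS genes taken from its chromosome. The deposited tables give the gene IDs with descriptions: LOC_Os01g69030 is SPS1, LOC_Os02g09170 is SPS2, LOC_Os06g43630 is SPS6, LOC_Os08g20660 is SPS8 and LOC_Os11g12810 is SPS11, all described there as sucrose-phosphate synthases. LOC_Os01g64660 is cFBPase. LOC_Os03g28330 is SUS1, LOC_Os06g09450 is SUS2, LOC_Os07g42490 is SUS3 and LOC_Os03g22120 is SUS4, all described as sucrose synthases.

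The unit of all levels is FPKM, the fragments of a gene per kilobase of its transcript, scaled to the mapped fragments of the library, so levels can be set side by side between genes. The tables hold no read counts, and the depth of the libraries is unknown. Leaf markers were high in every library: the Rubisco activase gene RCA lay between 5264 and 26008 FPKM and the light-harvesting gene CAB1R between 4030 and 8917 FPKM, while the root marker RCc3 and the anther marker OsC6 were listed at 0 in all 36. Grain storage proteins differed between libraries of the same group, and the summed FPKM of 3 glutelin genes and a globulin gene ran from 2.93 to 228.5 over the libraries, with a median of 48.5. In a whole leaf, fewer cells of a type and less RNA per cell cannot be told apart.

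Levels differed widely among the members. cFBPase was the most abundant, with a median of 245 FPKM over the 36 libraries and a range of 55.9 to 388 FPKM. Among the synthases of sucrose phosphate, SPS1 ran from 12.6 to 126 FPKM with a median of 74.4, and SPS11 from 46 to 85.1 FPKM with a median of 65.9. SPS6, SPS8 and SPS2 lay lower, with medians of 17.7, 11.1 and 11.2 FPKM. SUS2, with a median of 25.1 FPKM, and SUS4, with 8.35 FPKM, were the sucrose synthases above 1 FPKM in every library. SUS1 reached 1 FPKM in only 7 of 36 libraries and SUS3 in only 6, and SUS3 was listed at 0 in 6. All 10 passed the filter of at least 1 FPKM in at least 3 libraries, SUS1 and SUS3 only through those few libraries. Calls of SUS1 and SUS3 are included in the member counts below as a description only. How the authors' software shared reads among near-identical gene copies is not given in the sources used here, so the low values of SUS1 and SUS3 are uncertain.

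The spread among the 12 group means also set the members apart. The highest group mean was 9.7 times the lowest for SPS1 and 6.43 times for cFBPase, against 1.3 times for SPS2 and 1.67 times for SPS11. SUS2 spanned 3.56 times and SUS4 2.86 times. The plot of every library shows where these ranges come from: SPS1 and cFBPase were low in 1 condition, day 1 of the early season, in all 3 varieties.

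**Figure D1:**
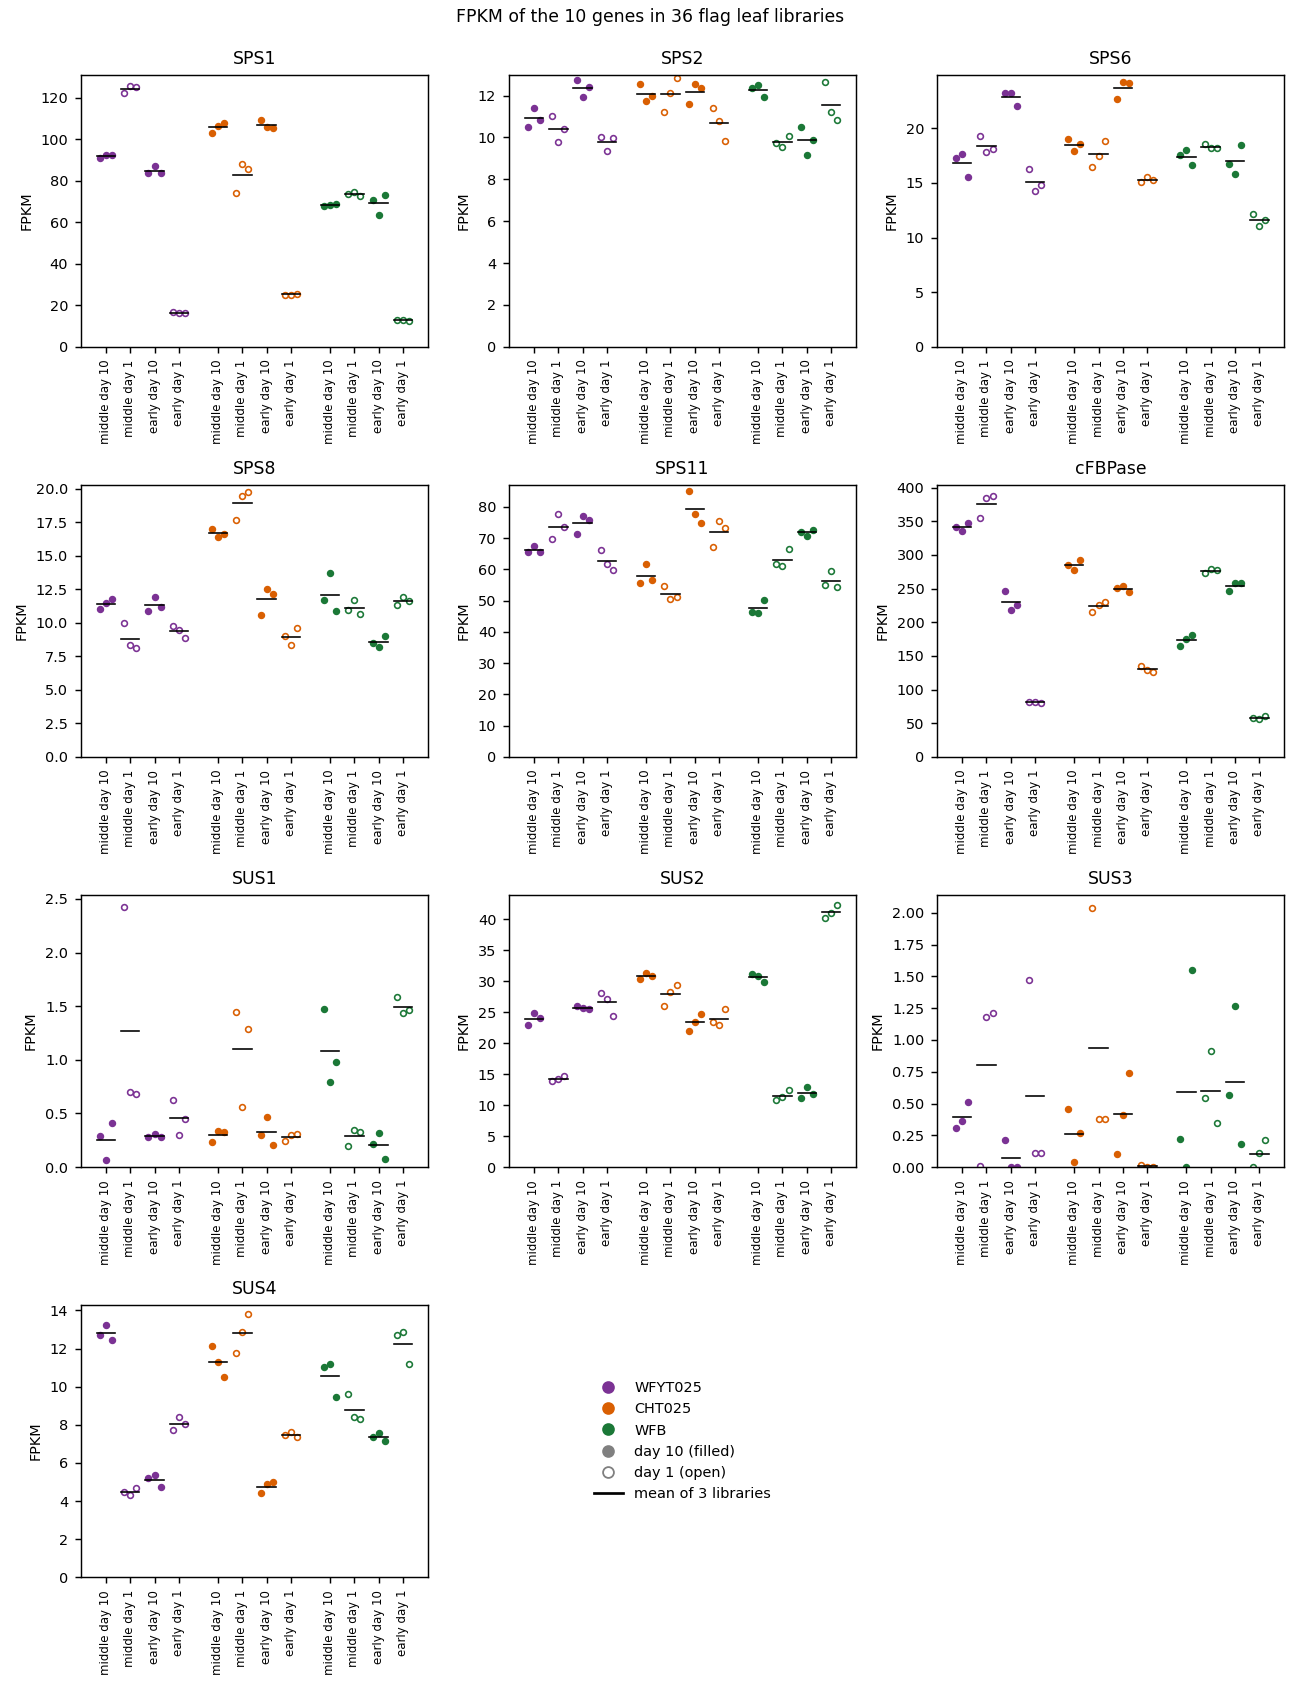
FPKM of each of the 10 genes (1 panel a gene, linear axis from 0) in every library, with the 4 conditions of WFYT025, CHT025 and WFB from left to right; points are libraries, filled for day 10 and open for day 1, and lines are means of 3 libraries. SPS1 and cFBPase were lowest on day 1 of the early season in each variety, SUS2 was highest in WFB at that time (mean 41.1 FPKM), and SUS1 and SUS3 scattered at or below 2.42 FPKM.

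Day 10 was compared with day 1 within each variety and season, to ask how sucrose metabolism moved during the first days of grain filling. A gene was called where limma's moderated test on log2(FPKM + 1), adjusted over the 18585 tested genes with the Benjamini-Hochberg method, gave a p under 0.05. Log2 changes below are on that scale, with their standard error. For the middle season, 3 of 10 members were called higher and 4 lower in WFYT025, where 47.7% of all tested genes were called higher and 16.6% lower. The counts were 4 higher and 1 lower in CHT025 (23.1% and 20.5% of all genes), and 4 and 3 in WFB (46% and 20.6%). For the early season, 6 members were higher and 1 lower in WFYT025 (33% and 35% of all genes), 6 and 1 in CHT025 (25.1% and 39.9%), and 4 and 5 in WFB (25% and 46.1%). Since so many genes of the leaf were called, the sizes of the changes say more than the counts. The median change of the members in the middle season was -0.13, 0.04 and 0.02 in WFYT025, CHT025 and WFB, beside 0.18, 0.01 and 0.16 over all tested genes. For the early season it was 0.25, 0.26 and 0.07, beside -0.00, -0.09 and -0.15 over all tested genes.

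SPS1 was high in the middle season on both days, and it moved little and in different directions there. In WFYT025 it had 91.1, 92.7 and 92.7 FPKM on day 10, against 122, 126 and 125 FPKM on day 1, a change of -0.43 ± 0.04 (limma, adjusted p = 8.80e-10). In CHT025 it had 103, 107 and 108 FPKM on day 10, against 74.2, 88 and 85.7 FPKM on day 1, a change of 0.36 ± 0.04 (adjusted p = 7.66e-08). In WFB it had 68, 68.4 and 68.7 FPKM on day 10, against 73.8, 74.6 and 72.8 FPKM on day 1. The libraries of the days did not overlap in any variety, but the WFB difference of -0.11 ± 0.04 (adjusted p = 0.034) lost its call under 7 of its 12 alternative settings.

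The large change of SPS1 came in the early season, where it rose in all 3 varieties. WFYT025 then had 83.8, 87.4 and 83.7 FPKM on day 10, against 16.7, 16.5 and 16.4 FPKM on day 1. CHT025 had 109, 106 and 106 FPKM on day 10, against 25.1, 25.2 and 25.4 FPKM on day 1. WFB had 71, 63.6 and 73.2 FPKM on day 10, against 12.9, 12.9 and 12.6 FPKM on day 1. Each day 10 library thus lay far above every day 1 library of its variety. The group means on day 10 were 5.14 times those on day 1 in WFYT025, 4.24 times in CHT025 and 5.40 times in WFB. On the log2 scale the change was 2.29 ± 0.04 in WFYT025 (limma, adjusted p = 4.62e-27), 2.04 ± 0.04 in CHT025 (adjusted p = 1.18e-25) and 2.34 ± 0.04 in WFB (adjusted p = 3.55e-28). Among all tested genes, 6% in WFYT025, 3.37% in CHT025 and 7.13% in WFB were called and at least 2-fold higher on day 10. The day change in the middle season minus that in the early season, tested as an interaction term, was -2.72 ± 0.06 in WFYT025, -1.68 ± 0.06 in CHT025 and -2.45 ± 0.06 in WFB (limma, adjusted p of 9.53e-20 or less in each).

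Ordered by its 12 group means, SPS1 was highest in the day 1 leaves of WFYT025 in the middle season, with 124 ± 1.83 FPKM (SD, n = 3). CHT025 on day 10 followed, with 106 ± 2.34 FPKM in the middle and 107 ± 2.05 FPKM in the early season, whose libraries overlapped. WFYT025 on day 10 of the middle season, at 92.2 ± 0.883 FPKM, stood clear of its neighbours on both sides. WFYT025 on day 10 of the early season, at 85 ± 2.13 FPKM, and CHT025 on day 1 of the middle season, at 82.7 ± 7.39 FPKM, overlapped. Next came 3 WFB groups, at 68.4 ± 0.362 FPKM on day 10 and 73.7 ± 0.892 FPKM on day 1 of the middle season and 69.2 ± 5.05 FPKM on day 10 of the early season. The libraries of the last of these overlapped with both others. Those of WFB on day 1 of the middle season also overlapped with those of CHT025 on that day and season. The 3 groups of day 1 in the early season closed the order without overlap, at 25.3 ± 0.142 FPKM in CHT025, 16.5 ± 0.137 FPKM in WFYT025 and 12.8 ± 0.17 FPKM in WFB.

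cFBPase, which feeds fructose 6-phosphate to sucrose synthesis, spread by variety in the middle season. WFYT025 had 342, 336 and 347 FPKM on day 10, against 355, 384 and 388 FPKM on day 1. CHT025 had 285, 277 and 293 FPKM on day 10, against 216, 225 and 230 FPKM on day 1. WFB had 165, 175 and 181 FPKM on day 10, against 273, 278 and 277 FPKM on day 1. It therefore fell in WFB, by -0.67 ± 0.04 (limma, adjusted p = 1.49e-14), and rose in CHT025, by 0.35 ± 0.04 (adjusted p = 4.62e-08). The smaller difference in WFYT025, -0.14 ± 0.04 (adjusted p = 0.0054), was no longer called after quantile normalization.

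The early season showed the same direction for cFBPase in all varieties, a rise, as for SPS1. WFYT025 had 246, 219 and 225 FPKM on day 10, against 80.8, 81.7 and 80.6 FPKM on day 1. CHT025 had 251, 254 and 244 FPKM on day 10, against 135, 129 and 127 FPKM on day 1. WFB had 246, 259 and 258 FPKM on day 10, against 58.4, 55.9 and 60.9 FPKM on day 1. The days did not overlap in any variety, and the varieties lay closer together on day 10 than on day 1. The change was 1.49 ± 0.04 in WFYT025 (limma, adjusted p = 2.90e-23), 0.93 ± 0.04 in CHT025 (adjusted p = 3.74e-18) and 2.10 ± 0.04 in WFB (adjusted p = 1.35e-27). The interaction of season and day was -1.63 ± 0.06 in WFYT025, -0.58 ± 0.06 in CHT025 and -2.77 ± 0.06 in WFB (adjusted p of 8.84e-10 or less in each).

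**Figure D2:**
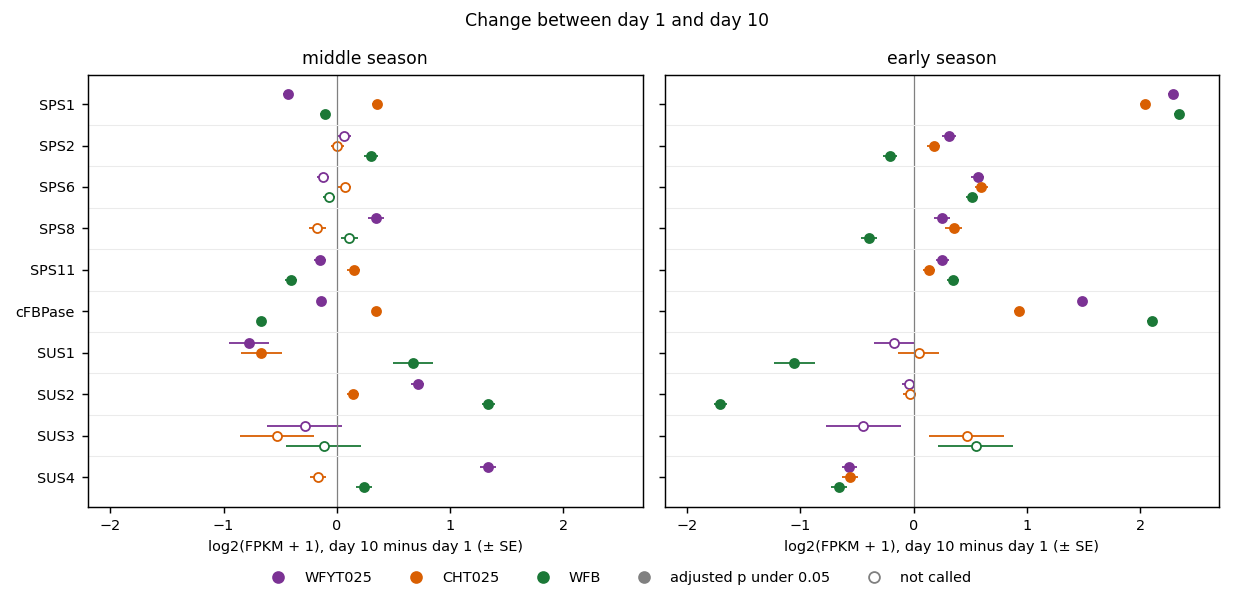
Log2(FPKM + 1) on day 10 minus day 1 (± SE) for each gene, in the middle season (left) and the early season (right); colours are varieties and filled points have an adjusted p under 0.05. In the early season SPS1 lies between 2.04 and 2.34 in all varieties, and the WFB points of SUS2 stand at 1.34 in the middle and -1.71 in the early season.

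The other sucrose-phosphate synthases changed less. SPS6 passed the test in no middle season comparison (limma, adjusted p of 0.0577 to 0.34), with differences of -0.12, 0.07 and -0.07 in WFYT025, CHT025 and WFB. It rose in the early season by 0.57 ± 0.06 in WFYT025, 0.60 ± 0.06 in CHT025 and 0.51 ± 0.06 in WFB (adjusted p of 2.14e-09 or less in each). Its early season means were 22.8 ± 0.688 FPKM on day 10 against 15.1 ± 1.05 FPKM on day 1 in WFYT025, 23.7 ± 0.872 against 15.3 ± 0.225 FPKM in CHT025, and 17 ± 1.36 against 11.6 ± 0.55 FPKM in WFB. The interaction was -0.69 in WFYT025, -0.53 in CHT025 and -0.58 in WFB, all 3 called.

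SPS11, the second most abundant of the family, fell in WFB of the middle season, with 46.4, 46 and 50.2 FPKM on day 10, against 61.8, 61.1 and 66.5 FPKM on day 1 (-0.40 ± 0.05, limma, adjusted p = 1.74e-07). It rose in the early season by 0.25 ± 0.05 in WFYT025 (adjusted p = 0.000156) and 0.35 ± 0.05 in WFB (adjusted p = 1.60e-06). Its other day differences were at most 0.15 in size on the log2 scale, and each lost its call in at least 1 alternative setting.

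SPS8 went opposite ways in the early season: it rose in WFYT025 (0.25 ± 0.07) and CHT025 (0.35 ± 0.07) and fell in WFB (-0.40 ± 0.07, limma, adjusted p of 0.00321 or less in each). In WFB it had 8.51, 8.24 and 9.06 FPKM on day 10, against 11.3, 11.9 and 11.6 FPKM on day 1. In CHT025 it had 10.6, 12.5 and 12.1 FPKM on day 10, against 9.01, 8.33 and 9.59 FPKM on day 1. SPS2 was the steadiest member: all 36 values lay between 9.17 and 12.8 FPKM. Its largest day difference was in WFYT025 of the early season, with 12.4 ± 0.399 FPKM on day 10 and 9.79 ± 0.388 FPKM on day 1 (0.31 ± 0.06, adjusted p = 4.19e-05).

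Summed over the 5 SPS genes, the level on day 1 of the early season was 113 ± 4.84 FPKM in WFYT025, 132 ± 3.9 FPKM in CHT025 and 104 ± 2.69 FPKM in WFB (SD, n = 3). The sum of the other 9 groups lay between 158 and 236 FPKM. SPS1 made up 41.2% ± 0.347 of the sum on day 10 of the early season in WFYT025, 45.8% ± 0.354 in CHT025 and 39.2% ± 1.1 in WFB, against 14.6% ± 0.493, 19.1% ± 0.525 and 12.3% ± 0.184 on day 1. SPS11 was then the main gene of the family on day 1, with 55.2% ± 0.648 of the sum in WFYT025, 54.4% ± 1.7 in CHT025 and 54.2% ± 1.5 in WFB. The highest share of SPS1 was 52.8% ± 0.331, reached by WFYT025 on day 1 of the middle season. These sums and shares are descriptions without a test.

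**Figure D3:**
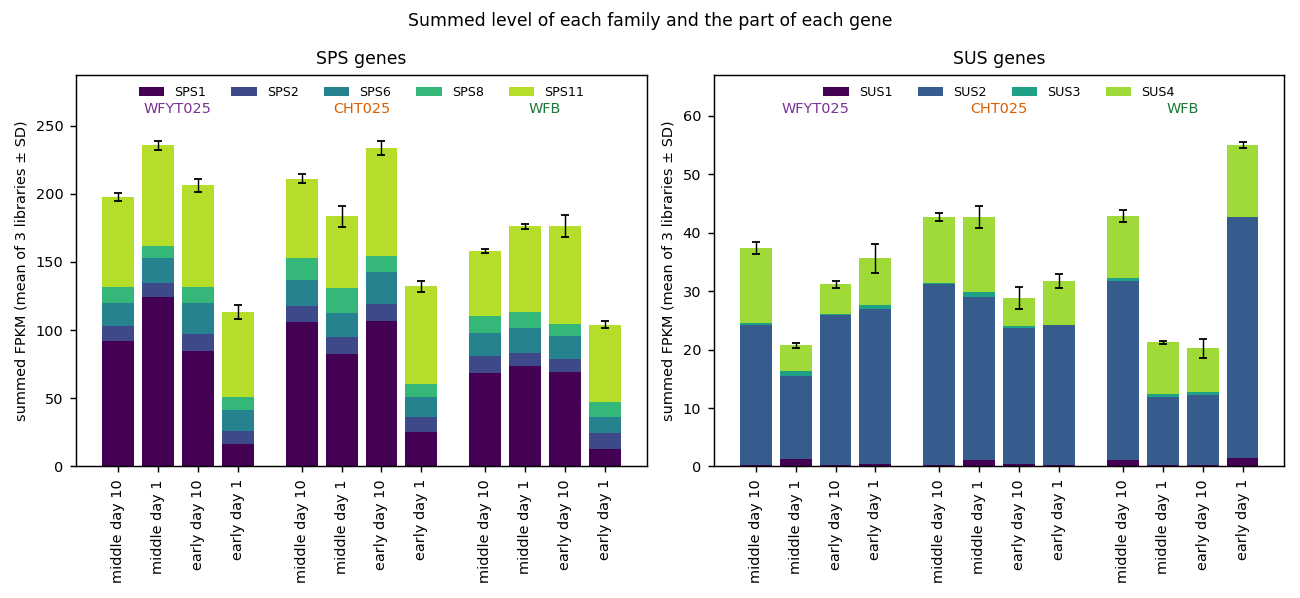
Summed FPKM (mean of 3 libraries ± SD) of the 5 SPS genes (left) and the 4 SUS genes (right) in each group, with the part of each gene in colour. The SPS sum is lowest on day 1 of the early season in each variety, and the SUS sum ranges between 20.2 and 55 FPKM, both extremes in WFB of the early season.

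Of the sucrose synthases, SUS2 carried most of the level, 54.4% to 82.4% of the summed SUS FPKM in every group. Its largest changes were in WFB. WFB of the middle season had 31.2, 30.9 and 29.9 FPKM of SUS2 on day 10, against 10.8, 11.4 and 12.5 FPKM on day 1. WFB of the early season had 11.1, 12.9 and 11.8 FPKM on day 10, against 40.1, 41 and 42.4 FPKM on day 1. The direction thus turned round between the seasons, with no overlap of days in either. The change was 1.34 ± 0.06 in the middle season (limma, adjusted p = 1.30e-18) and -1.71 ± 0.06 in the early season (adjusted p = 8.08e-22), and the interaction was 3.04 ± 0.08 (adjusted p = 2.66e-24).

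SUS2 moved less in the other varieties. WFYT025 of the middle season had 23, 24.8 and 24.1 FPKM on day 10, against 13.8, 14.1 and 14.6 FPKM on day 1, a rise of 0.72 ± 0.06 (limma, adjusted p = 3.08e-12) that was 0.39 after quantile normalization. CHT025 of the middle season had means of 30.8 ± 0.48 FPKM on day 10 and 27.9 ± 1.69 FPKM on day 1, and the difference of 0.14 (adjusted p = 0.0407) lost its call under 9 of 12 alternatives. The days of the early season overlapped in WFYT025 (25.7 ± 0.236 FPKM on day 10, 26.6 ± 1.94 FPKM on day 1, adjusted p = 0.496) and in CHT025 (23.4 ± 1.32 and 23.9 ± 1.35 FPKM, adjusted p = 0.628). The interaction was 0.76 ± 0.08 in WFYT025 (adjusted p = 1.17e-09) and 0.18 ± 0.08 in CHT025 (adjusted p = 0.0599).

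Grain storage transcripts were uneven across the WFB groups. The summed FPKM of the 4 storage genes in WFB ran from 2.93 to 94.5 on day 10 and from 162 to 228.5 on day 1 of the middle season, and from 8.45 to 123 on day 10 and 5.28 to 41.7 on day 1 of the early season. Of these genes, the glutelin LOC_Os02g16830 was listed at 0 in 10 of the 36 libraries and the globulin in 7. SUS2 was low in WFB both where the sum was highest and on day 10 of the early season. In a fit with that sum as a covariate, chosen after seeing the data, the SUS2 change in WFB was 1.31 in the middle and -1.70 in the early season, both called. The weight of the covariate in that fit comes only from scatter within groups. The part of grain storage transcripts in the SUS2 differences between groups was not tested.

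The largest day change of SUS4 was in the hybrid. WFYT025 of the middle season had 12.7, 13.2 and 12.4 FPKM of SUS4 on day 10, against 4.45, 4.30 and 4.69 FPKM on day 1 (1.33 ± 0.07, limma, adjusted p = 1.17e-16). CHT025 then had 11.3 ± 0.815 FPKM on day 10 and 12.8 ± 1.03 FPKM on day 1, which overlapped (-0.17 ± 0.07, adjusted p = 0.0519). WFB had 10.6 ± 0.947 FPKM on day 10 and 8.79 ± 0.741 FPKM on day 1, which overlapped too, and that difference (0.24 ± 0.07, adjusted p = 0.00325) was 0.05 and not called after quantile normalization. SUS4 fell in all 3 varieties in the early season. It had 5.23, 5.39 and 4.73 FPKM on day 10 against 7.73, 8.39 and 8.04 FPKM on day 1 in WFYT025. In CHT025 it had 4.41, 4.89 and 4.98 FPKM on day 10 against 7.47, 7.64 and 7.34 FPKM on day 1. In WFB it had 7.38, 7.58 and 7.16 FPKM on day 10 against 12.7, 12.8 and 11.2 FPKM on day 1. The days were apart in each variety, and the changes were -0.57 ± 0.07, -0.56 ± 0.07 and -0.66 ± 0.07 in WFYT025, CHT025 and WFB (adjusted p of 2.95e-08 or less in each). The interaction of season and day was 1.90 ± 0.10 in WFYT025 (adjusted p = 7.88e-17), 0.39 ± 0.10 in CHT025 (adjusted p = 0.000976) and 0.90 ± 0.10 in WFB (adjusted p = 1.50e-09).

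SUS1 was scarce throughout, and its differences rest on values near 1 FPKM. WFYT025 of the middle season had 0.29, 0.07 and 0.41 FPKM on day 10 against 2.42, 0.70 and 0.68 FPKM on day 1 (-0.78 ± 0.18), and without the library of 2.42 FPKM the difference was -0.44. CHT025 of that season had 0.23, 0.34 and 0.33 FPKM on day 10 against 1.45, 0.56 and 1.29 FPKM on day 1 (-0.67 ± 0.18). WFB of the middle season had 1.47, 0.79 and 0.98 FPKM on day 10, against 0.20, 0.35 and 0.33 FPKM on day 1 (0.67 ± 0.18). WFB of the early season had 0.22, 0.32 and 0.08 FPKM on day 10, against 1.59, 1.44 and 1.46 FPKM on day 1. Since SUS1 passed the filter only through the 7 libraries in which it was high, 3 of them those of WFB on day 1 of the early season, its differences are a description and support nothing further. With a pseudocount of 0.1 the WFB differences were 1.57 in the middle and -2.46 in the early season. SUS3 passed the test in no day comparison (limma, adjusted p of 0.138 to 0.777). Its replicates lay far apart, as in the day 1 libraries of WFYT025 in the early season, with 1.47, 0.11 and 0.11 FPKM.

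Set against the early season at the same day, the middle season differed most for SPS1 on day 1, in WFYT025. For day 10 the season difference of SPS1 was 0.12 in WFYT025, -0.01 in CHT025 and -0.02 in WFB, of which WFYT025 alone was called (limma, adjusted p = 0.0225), with a sign that turned after quantile normalization (-0.10). cFBPase on day 10 was higher in the middle season in WFYT025 (0.57 ± 0.04, adjusted p = 4.77e-13) and in CHT025 (0.19 ± 0.04, adjusted p = 0.00024). It was lower in WFB (-0.55 ± 0.04, adjusted p = 1.15e-12). SUS4 on day 10 was higher in the middle season in all varieties, by 1.18 ± 0.07 in WFYT025, 1.09 ± 0.07 in CHT025 and 0.46 ± 0.07 in WFB (adjusted p of 8.34e-07 or less in each). The WFB value was 0.19 after quantile normalization. SUS2 on day 10 was higher in the middle season in WFB (1.29) and CHT025 (0.39), with a difference of -0.10 in WFYT025 that was not called (-0.31 and called after quantile normalization, which also took CHT025 to 0.19). For day 1, SPS1 was higher in the middle season by 2.84 ± 0.04 in WFYT025, 1.67 ± 0.04 in CHT025 and 2.43 ± 0.04 in WFB (adjusted p of 4.80e-24 or less in each). cFBPase was higher on day 1 by 2.20 ± 0.04 in WFYT025, 0.77 ± 0.04 in CHT025 and 2.22 ± 0.04 in WFB (adjusted p of 2.21e-16 or less in each). SUS2 on day 1 was lower in the middle season in WFYT025 (-0.86) and WFB (-1.75) and higher in CHT025 (0.21). SUS4 on day 1 was also called lower in the middle season in WFYT025 (-0.72) and WFB (-0.44) and higher in CHT025 (0.70). SPS8 of CHT025 on day 1 had 19 ± 1.14 FPKM in the middle season, against 8.98 ± 0.631 FPKM in the early season (adjusted p = 2.93e-13).

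Counted over the 10 members on day 10, the middle season was higher for 3 and lower for 3 in WFYT025 (38.6% and 25.2% of all tested genes), 4 and 2 in CHT025 (48.3% and 15.9%), and 5 and 2 in WFB (47.7% and 20.2%). The day 1 counts were 5 and 2 in WFYT025 (30.1% and 44.1%), 9 and 1 in CHT025 (40.5% and 31.5%), and 4 and 4 in WFB (33.2% and 45.2%). The interaction of season and day was positive for 2 members and negative for 6 in WFYT025 (47.4% and 22.6% of all tested genes), 1 and 5 in CHT025 (36.1% and 21%), and 5 and 4 in WFB (53.5% and 23.9%).

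The hybrid was compared with either parent, and with the mid-parent, which is the average of the parents on the log2 scale, to see where its level lay. WFYT025 was called outside both parents mainly in the middle season, as among all tested genes. For the early season 6.52% of all tested genes were called above both parents and 3.47% below both on day 10. The early season shares on day 1 were 4.07% and 8.16%. On day 10 of the middle season, 3 members were higher and 4 lower in WFYT025 than in CHT025 (19.6% and 37.3% of all tested genes). The counts were 4 and 3 against WFB (25.2% and 30.2%), and 4 and 4 against the mid-parent (20.7% and 34%). SPS11, cFBPase and SUS4 were called above both parents on that day of the middle season, as were 10.8% of all genes. SUS2 was called below both, as were 15.8%. cFBPase had 341 ± 5.5 FPKM in WFYT025, against 285 ± 7.93 FPKM in CHT025 and 174 ± 8.22 FPKM in WFB, 0.62 ± 0.04 above the mid-parent (limma, adjusted p = 4.84e-15). SUS2 had 24 ± 0.917 FPKM in WFYT025, against 30.8 ± 0.48 FPKM in CHT025 and 30.7 ± 0.652 FPKM in WFB (-0.35 ± 0.05, adjusted p = 5.83e-07). The excess over CHT025 was 0.19 for SPS11 and 0.17 for SUS4, and each lost its call in at least 1 alternative.

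For day 1 of the middle season, 3 members were higher and 4 lower in WFYT025 than in CHT025 (13.3% and 60.4% of all tested genes), 5 and 2 against WFB (25.4% and 35.5%), and 4 and 3 against the mid-parent (14.6% and 49.9%). SPS1, SPS11 and cFBPase were called above both parents, as were 5.7% of all genes, and SPS8 and SUS4 below both, as were 23.6%. SPS1 had 124 ± 1.83 FPKM in WFYT025, against 82.7 ± 7.39 FPKM in CHT025 and 73.7 ± 0.892 FPKM in WFB, 0.67 ± 0.04 above the mid-parent (limma, adjusted p = 2.58e-15). cFBPase had 376 ± 17.9 FPKM in WFYT025, against 224 ± 7.14 FPKM in CHT025 and 276 ± 2.88 FPKM in WFB, 0.59 ± 0.04 above the mid-parent (adjusted p = 1.14e-14). SPS11 had 73.7 ± 3.94 FPKM in WFYT025, against 52.1 ± 2.24 FPKM in CHT025 and 63.1 ± 2.98 FPKM in WFB (0.36 ± 0.05, adjusted p = 1.44e-07). In each of these genes every WFYT025 library lay above every library of the parents. SUS4 lay below them in the same way, at 4.48 ± 0.197 FPKM in WFYT025, against 12.8 ± 1.03 FPKM in CHT025 and 8.79 ± 0.741 FPKM in WFB (-1.08 ± 0.06, adjusted p = 1.14e-15). SPS8, at 8.81 ± 1.03 FPKM in WFYT025, against 19 ± 1.14 FPKM in CHT025 and 11.1 ± 0.553 FPKM in WFB, was not called against WFB after quantile normalization (-0.14).

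The hybrid of the early season mostly lay between its parents or at the level of CHT025. On day 10, 2 members were lower in WFYT025 than in CHT025 (16.8% of all tested genes, with 18% higher), while 5 were higher and 2 lower than in WFB (36.1% and 23%), and 4 and 2 against the mid-parent (26.6% and 14.8%). SUS2 had 25.7 ± 0.236 FPKM in WFYT025, against 23.4 ± 1.32 FPKM in CHT025 and 11.9 ± 0.892 FPKM in WFB. It differed from WFB (1.05 ± 0.06, limma, adjusted p = 7.46e-16) but not past the threshold from CHT025 (0.13 ± 0.06, adjusted p = 0.0714). cFBPase was called below both parents, as were 3.47% of all genes, by -0.12 against CHT025 and -0.15 against WFB, and quantile normalization ended both calls. On day 1, 1 member was higher and 3 lower in WFYT025 than in CHT025 (16.4% and 25.9% of all genes), 4 and 5 against WFB (21.3% and 26.8%), and 1 and 5 against the mid-parent (16.5% and 23.3%). SPS1 and cFBPase then differed from both parents and lay between them. SPS11 and SUS2 were also called between them, but SPS11 against WFB (0.15) lost its call in 5 and SUS2 against CHT025 (0.14) in 6 of 12 alternatives, and the SUS2 libraries of WFYT025 and CHT025 overlapped. The SPS1 difference was -0.58 from CHT025 and 0.34 from WFB.

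**Figure D4:**
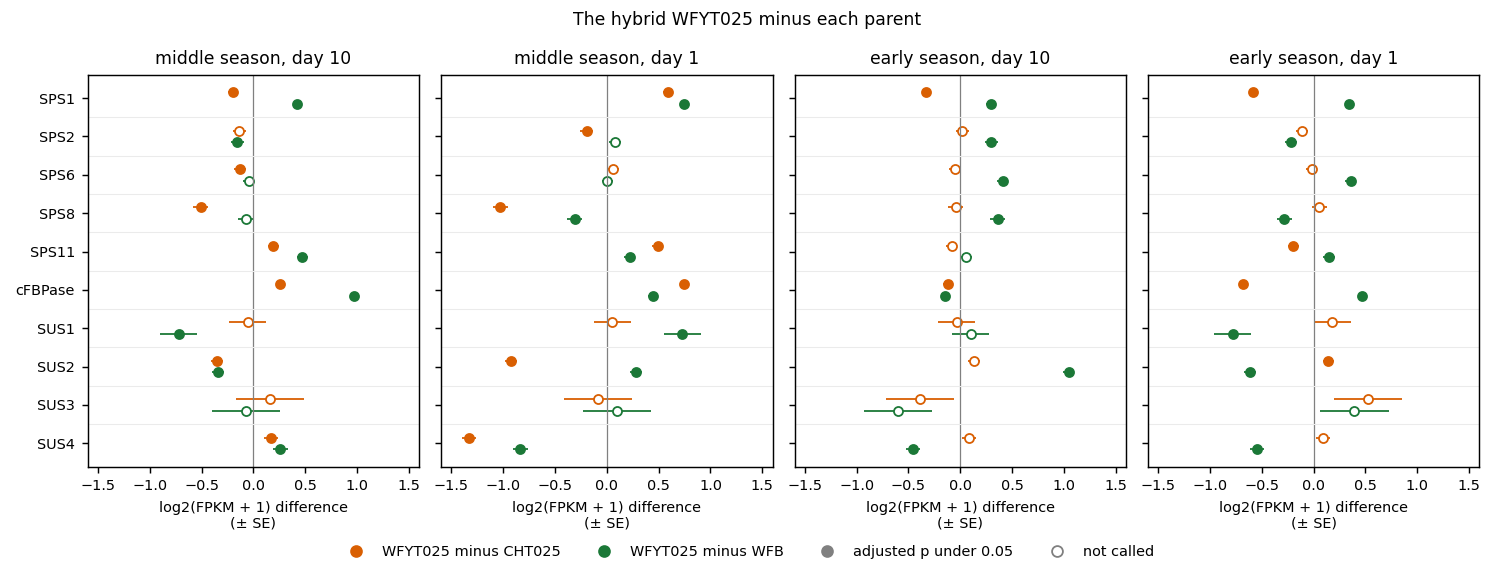
Log2(FPKM + 1) of WFYT025 minus CHT025 (orange) and minus WFB (green), ± SE, for each gene in the 4 combinations of season and day; filled points have an adjusted p under 0.05. On day 1 of the middle season both points of SPS1, SPS11 and cFBPase lie right of 0 and both points of SUS4 lie left of it, at -1.33 and -0.83.

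The day change of the hybrid minus the mean day change of its parents was also tested. For the middle season the difference was positive for SPS8 and SUS4 and negative for SPS1 and SUS1 (33.6% of all tested genes were called positive and 17.4% negative). The calls of SPS8 in either season ended under quantile normalization, at 0.15 in the middle and 0.16 in the early season. SUS4 gave 1.30 ± 0.08 (limma, adjusted p = 5.06e-14) and SPS1 -0.55 ± 0.05 (adjusted p = 4.47e-10). For the early season it was positive for 3 of 10 members, SPS2, SPS8 and SUS2 (29.6% and 15.9% of all genes). SUS2 gave 0.82 ± 0.07 (adjusted p = 4.04e-11), with day changes of -0.05 in WFYT025, -0.03 in CHT025 and -1.71 in WFB.

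Between the parents, CHT025 had more SPS1 than WFB at every time: by 0.62 ± 0.04 on day 10 and 0.16 ± 0.04 on day 1 of the middle season, and by 0.62 ± 0.04 on day 10 and 0.93 ± 0.04 on day 1 of the early season (limma, adjusted p of 0.00183 or less in each). The difference of 0.16 lost its call when only the groups compared were fitted, and the libraries of the parents overlapped there. cFBPase was 0.71 ± 0.04 higher in CHT025 than in WFB on day 10 of the middle season and 1.15 ± 0.04 higher on day 1 of the early season, but lower on day 1 of the middle season (-0.30 ± 0.04) (adjusted p of 1.64e-07 or less in each). SUS2 was higher in CHT025 than in WFB on day 1 of the middle season (1.20 ± 0.06) and on day 10 of the early season (0.91 ± 0.06) and lower on day 1 of the early season (-0.76 ± 0.06, adjusted p of 7.21e-13 or less in each). On day 10 of the middle season SUS2 had 30.8 FPKM in CHT025 and 30.7 FPKM in WFB, a difference of 0.01 ± 0.06 (adjusted p = 0.911). Over the members, CHT025 was higher for 4 and lower for 1 on day 10 of the middle season (33.9% and 23.4% of all tested genes) and for 6 and 2 on day 1 (52.5% and 22.8%). For the early season the counts were 6 and 1 on day 10 (37.5% and 26.8%) and 4 and 4 on day 1 (31.4% and 28%).

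Other genes of the pathway were taken from the descriptions and enzyme classes in the tables: 57 genes in all, of which 42 passed the filter. For the middle season, 18 of the 42 were called higher on day 10 and 13 lower in WFYT025 (47.7% and 16.6% of all tested genes), 9 and 15 in CHT025 (23.1% and 20.5%), and 23 and 11 in WFB (46% and 20.6%). For the early season the counts were 21 and 15 in WFYT025 (33% and 35%), 18 and 16 in CHT025 (25.1% and 39.9%), and 13 and 23 in WFB (25% and 46.1%). In WFB most calls were thus higher on day 10 in the middle season and lower in the early season, as among all tested genes. Levels below are means of 3 libraries.

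The 2 tested sucrose-phosphatases, which carry out the last step of sucrose synthesis, rose in the early season in WFYT025 and CHT025. LOC_Os01g27880, the one with the larger change, had 33.4 FPKM on day 10 and 13.1 FPKM on day 1 in WFYT025 (1.29 ± 0.06, limma, adjusted p = 8.49e-18), 24 and 14.2 FPKM in CHT025 (0.72 ± 0.06), and 22.9 and 10.3 FPKM in WFB (1.08 ± 0.06). LOC_Os02g05030, the more abundant, rose by 0.39 in WFYT025 and 0.53 in CHT025 and fell by 0.28 in WFB. The most abundant UTP-glucose-1-phosphate uridylyltransferase, LOC_Os09g38030, the enzyme that makes UDP-glucose, rose in WFYT025 of the early season (0.71), with 279 FPKM on day 10 and 170 FPKM on day 1. Its means in that season were 260.5 and 164 FPKM in CHT025, and 208 and 162 FPKM in WFB. For the middle season they were 208 FPKM on day 10 and 233 FPKM on day 1 in WFYT025, 204 and 324 FPKM in CHT025, and 169 and 181 FPKM in WFB. LOC_Os08g10600, which had the largest change under that description, bears an enzyme class of another sugar nucleotide in the tables and rose in WFB of the middle season by 0.89.

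The triose phosphate/phosphate translocator LOC_Os05g07870, the most abundant and most changed of 6 tested phosphate translocators, rose in the early season. It had 427 FPKM on day 10 and 204 FPKM on day 1 in WFYT025 (1.06 ± 0.03), 461 and 320 FPKM in CHT025 (0.52 ± 0.03), and 395 and 45.3 FPKM in WFB (3.10 ± 0.03; limma, adjusted p = 4.65e-36). Middle season means of this translocator were 378 FPKM on day 10 and 468 FPKM on day 1 in WFYT025. They were 360 and 329 FPKM in CHT025, and 373 and 453 FPKM in WFB. Among 4 other genes described as fructose-1,6-bisphosphatases, LOC_Os04g16680, to which the tables give the enzyme class of sedoheptulose bisphosphatase of the Calvin cycle, was the most abundant and rose in the early season by 0.47 in WFYT025, 0.57 in CHT025 and 0.54 in WFB. Middle season means of LOC_Os04g16680 were 873 FPKM on day 10 and 1322 FPKM on day 1 in WFYT025. They were 931 and 970 FPKM in CHT025, and 931 and 1068 FPKM in WFB. LOC_Os06g45370 fell in all 6 comparisons, most in WFYT025 of the early season (-0.94).

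Fructokinases phosphorylate the fructose that sucrose breakdown sets free. Of 5 tested, 4 fell in the early season in WFYT025, 4 in CHT025 and all 5 in WFB, where 35%, 39.9% and 46.1% of all tested genes were called lower. For the middle season 3 rose and 1 fell in WFYT025 (47.7% and 16.6% of all tested genes). The counts were 1 and 4 in CHT025 (23.1% and 20.5%), and 3 and 1 in WFB (46% and 20.6%). LOC_Os03g40550 had 5.13 FPKM on day 10 and 1.56 FPKM on day 1 in WFYT025 of the middle season, and rose there and in WFB (0.69) but fell in CHT025 (-0.45). The early season means were 4.76 FPKM on day 10 and 26.6 FPKM on day 1 in WFYT025 (-2.26 ± 0.07, limma, adjusted p = 5.96e-22), 5.09 and 16.3 FPKM in CHT025 (-1.51), and 3.96 and 23.9 FPKM in WFB (-2.33). The most abundant fructokinase, LOC_Os06g12600, fell in the early season by 0.49, 0.38 and 1.53 in WFYT025, CHT025 and WFB. Hexokinases were mixed: of 8 tested in WFYT025 of the early season, 4 rose and 2 fell (33% and 35% of all tested genes). In that season 3 rose and 3 fell in CHT025 (25.1% and 39.9%), and 2 and 4 in WFB (25% and 46.1%). Middle season counts were 3 and 2 in WFYT025, 2 and 2 in CHT025, and 5 and 1 in WFB, beside the middle season shares given above. The most abundant hexokinase, LOC_Os01g53930, rose by 0.67 in WFYT025 of the early season. Its early season means were 43.2 FPKM on day 10 and 30.2 FPKM on day 1 in CHT025, and 23.6 and 18.8 FPKM in WFB. For the middle season they were 27 and 31.6 FPKM in WFYT025, 31.1 and 36.3 FPKM in CHT025, and 25.3 and 28.8 FPKM in WFB. LOC_Os05g09500 had the largest change of the hexokinases, and rose by 1.74 in WFB of the middle season and fell by 2.33 in WFB of the early season.

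Invertases split sucrose into glucose and fructose. Of 11 genes with the enzyme class of acid invertases 5 were tested, and LOC_Os02g01590 was both the most abundant and the most changed. Its middle season means were 8.70 FPKM on day 10 and 96.5 FPKM on day 1 in WFYT025 (-3.33 ± 0.08, limma, adjusted p = 3.54e-24), 52.3 and 150 FPKM in CHT025 (-1.51), but 77.7 and 22.8 FPKM in WFB (1.73). Its early season means were 6.96 FPKM on day 10 and 0.11 FPKM on day 1 in WFYT025 (2.84 ± 0.08, adjusted p = 1.35e-22), 9.19 and 0.48 FPKM in CHT025 (2.78), and 1.03 and 0.03 FPKM in WFB (0.98). Of 8 neutral invertases, LOC_Os02g32730 was the most abundant and changed by at most 0.31 in size. LOC_Os01g22900, described as a neutral invertase but with an orthology code of another protein in the tables, had the largest change, with 8.24 FPKM on day 10 and 117 FPKM on day 1 in CHT025 of the early season (-3.68 ± 0.08, adjusted p = 4.22e-25). The 3 further genes described as sucrose synthases did not pass the filter.

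Clock genes changed beside SPS1 and cFBPase, and the labels used here give no hour of sampling. LHY, a MYB factor of the clock that peaks around dawn, had 389 ± 12.4 FPKM on day 10 and 844 ± 40 FPKM on day 1 in WFYT025 of the middle season. The LHY means were then 559.5 ± 30.1 and 542 ± 16.5 FPKM in CHT025, and 385 ± 16.2 and 541 ± 9.81 FPKM in WFB. SPS1 changed in that season by -0.43 in WFYT025, 0.36 in CHT025 and -0.11 in WFB, where the call was lost under 7 of 12 alternatives. LHY of the early season had 623 ± 4.47 FPKM on day 10 and 63.2 ± 0.411 FPKM on day 1 in WFYT025 (3.28 ± 0.04, limma, adjusted p = 1.65e-30), 688.5 ± 45.5 and 123 ± 3.14 FPKM in CHT025, and 385 ± 14.7 and 23.7 ± 0.353 FPKM in WFB. FKF1, an F-box gene that senses blue light and peaks late in the day in Arabidopsis, had in the early season 0.413 FPKM on day 10 and 19.7 FPKM on day 1 in WFYT025, 0.263 and 4.12 FPKM in CHT025, and 2.98 and 34.3 FPKM in WFB. GI was lower on day 10 of the early season in each variety (-0.82, -0.92 and -0.90 in WFYT025, CHT025 and WFB), and PRR1, also of the clock, was lower on day 10 in all 6 comparisons. Over the 12 group means Pearson's r with LHY was 0.98 for SPS1, 0.94 for cFBPase, 0.86 for SPS6, 0.24 for SPS11, -0.49 for SUS2 and -0.36 for SUS4, as a description of groups that share libraries and normalization. The part of the hour of sampling in the results on SPS1, cFBPase and SPS6 was not tested.

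**Figure D5:**
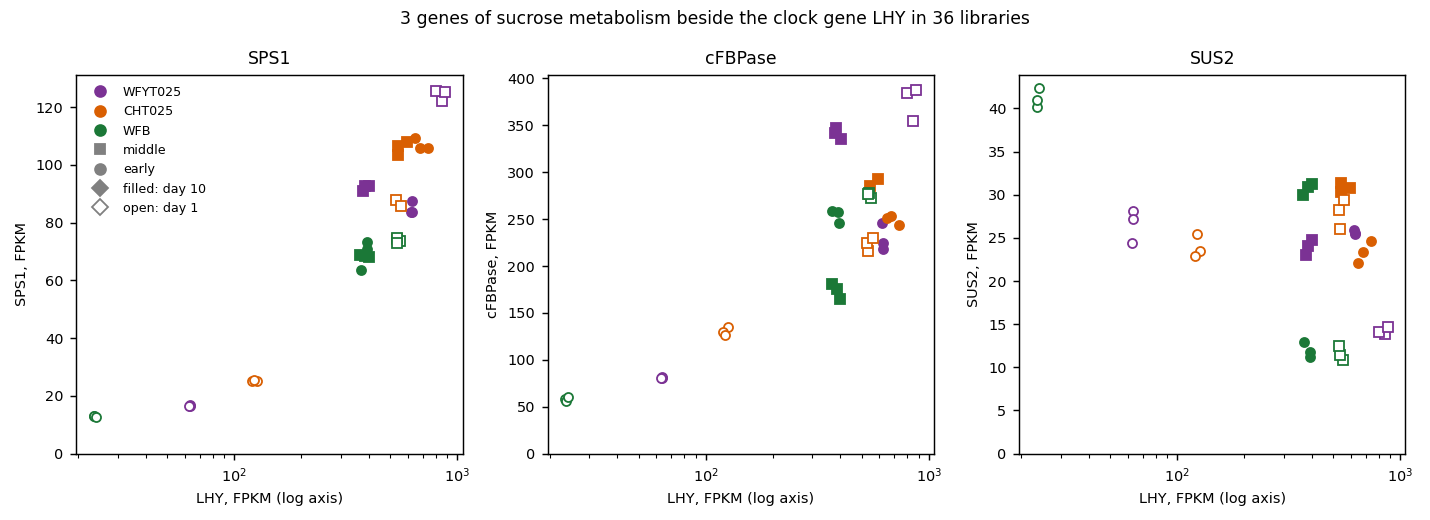
FPKM of SPS1, cFBPase and SUS2 (linear axes) against FPKM of the clock gene LHY (log axis) in the 36 libraries; colours are varieties, squares the middle and circles the early season, filled points day 10 and open points day 1. The 9 libraries of day 1 in the early season form 3 separate groups at 23.4 to 126 FPKM of LHY with the lowest SPS1 and cFBPase, while SUS2 shows no such order.

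By Pearson's r over the 12 group means of log2(FPKM + 1), the 3 tested genes most like SPS1 were LOC_Os11g48020, described as a fatty acid hydroxylase (0.99), LOC_Os12g03860, a major facilitator superfamily antiporter (0.98), and LOC_Os02g44360, of the scarecrow family of transcription factors (0.98). Most like cFBPase were LOC_Os03g17600, an expressed protein with no further description (0.98), LOC_Os04g42420, a nodulin (0.98), and again LOC_Os11g48020 (0.98). Most like SUS2 were LOC_Os04g56070, a subunit of the COP9 signalosome (0.96), LOC_Os02g52820, a cold-induced protein (0.95), and LOC_Os10g31900, an RNA recognition motif protein (0.95).

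The authors' deposited table gives log2 ratios of day 1 over day 10, so a negative ratio there means higher on day 10. The authors' deposited table marks SPS1 as significant in the early season of WFYT025 (-2.36), CHT025 (-2.08) and WFB (-2.43), and cFBPase in WFYT025 (-1.50) and WFB (-2.12). For SUS2 the authors' deposited table gives -1.41 in the middle and 1.79 in the early season of WFB, both marked significant, and for SUS4 -1.51 in WFYT025 of the middle season. For SUS1 the authors' deposited table marks 2.32 in WFYT025, 1.87 in CHT025 and -1.87 in WFB of the middle season and 2.86 in WFB of the early season. The authors' deposited table also marks SUS3 as significant in CHT025 of the middle season (1.88), and in the early season in WFB (-2.66) and in CHT025 (-6.11), where the SUS3 libraries had 0.10, 0.41 and 0.74 FPKM on day 10 and 0.02, 0.00 and 0.00 FPKM on day 1.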

How the data were processed

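Leaf mRNA was sequenced as paired ends, per the labels' protocols. The authors deposited FPKM per library with 2 decimals in 6 tables, 1 for each variety and season, per the file headers. The same tables hold the authors' log2 ratios and q-values, which were only quoted. The submitters' processing notes name HISAT, StringTie and edgeR, and the sources used here do not give versions, genome build or annotation. Low FPKM values showed no steps of whole reads, so depth is unknown and values carry no counting interval. From the early-season table of WFYT025, 1 broken and 7534 repeated lines were dropped.

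The filter kept 18585 genes that reached 1 FPKM in 3 or more libraries. They were fitted with limma 3.58.1 (R 4.3.3) on log2(FPKM + 1) as 12 group means over 36 libraries, with a trend, two-sided moderated tests and Benjamini-Hochberg adjustment over all tested genes. Fold changes on this scale understate those of low genes. Varieties and seasons stand in separate tables, so levels set across them rest on the scaling of FPKM within each library. Alternatives were a pseudocount of 0.1, no filter, quantile normalization, fitting only the groups compared, a replicate block and leaving out each library, and, added after seeing the data, a covariate of grain storage transcripts. The members and gene lists were chosen with earlier results of these data known. All 10 members are named, and of each pathway list the gene with the highest mean FPKM and the called gene with the largest day change. For the SPS gene, the SUS gene and the FBPase with the highest mean, the 3 genes of highest correlation are named. Python 3.11.15 with pandas 2.3.3 prepared the tables, and matplotlib 3.10.9 drew the figures.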

Additional observations from a re-analysis of the deposited data

Results flagged for a closer look

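The day change differed between the seasons by limma's interaction term (adjusted p under 0.05) in 23 of 30 tests, beside 47.4% of all tested genes positive and 22.6% negative in WFYT025, 36.1% and 21% in CHT025, and 53.5% and 23.9% in WFB, so the share of members called was near that of all genes. The values are the log2 change, day 10 minus day 1, in the middle season minus that in the early season. In WFYT025 the difference was -2.72 for SPS1, -0.24 for SPS2, -0.69 for SPS6, -0.40 for SPS11, -1.63 for cFBPase, -0.60 for SUS1, 0.76 for SUS2 and 1.90 for SUS4. In CHT025 the difference was -1.68 for SPS1, -0.53 for SPS6, -0.52 for SPS8, -0.58 for cFBPase, -0.71 for SUS1 and 0.39 for SUS4. In WFB the difference was -2.45 for SPS1, 0.51 for SPS2, -0.58 for SPS6, 0.51 for SPS8, -0.75 for SPS11, -2.77 for cFBPase, 1.73 for SUS1, 3.04 for SUS2 and 0.90 for SUS4. SPS1, cFBPase and SPS6 were negative in all 3 varieties, and SUS4 was positive in all 3. SUS1 was positive in WFB and negative in the other varieties, on values near or below 2.42 FPKM. It passed the filter only through 7 libraries, so its calls, counted here, are a description and support nothing further. The SUS1 call was lost in 8 of 18 alternatives in WFYT025 and in 1 of 18 in CHT025.

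The day change of WFYT025 differed from the mean of its parents in 7 of 20 tests, beside 33.6% of all tested genes positive and 17.4% negative in the middle season and 29.6% and 15.9% in the early season. In the middle season the difference was -0.55 for SPS1, 0.38 for SPS8, -0.78 for SUS1 and 1.30 for SUS4, with SUS1 again a description only. In the early season the difference was 0.33 for SPS2, 0.27 for SPS8 and 0.82 for SUS2.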

How the results depend on the processing

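Of 330 member tests 221 were called, and 170 of these kept their call and direction in every alternative run for them. Among the 105 called values of at least 0.5 on the log2 scale, 99 did so. The exceptions were the interaction of season and day of SPS8 in WFB, which was 0.21 after quantile normalization, and 5 values of SUS1 and SUS3. SUS1 of WFYT025 rests on replicate 1 of day 1 in the middle season: without it the excess over WFB was 0.39 instead of 0.73 (still called, but not when only the groups compared were fitted), the season difference on day 1 was 0.22 instead of 0.56, and the season difference of the day change was -0.26 instead of -0.60. The season difference of SUS3 on day 1 in CHT025 was 0.46 instead of 0.83 without replicate 1 of the middle season. Without replicate 1 of CHT025 on day 1 of the middle season, the season difference of the day change of SUS1 lost its call.

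Quantile normalization moved the median change of all tested genes by over 0.1 in several comparisons, for example to -0.07 instead of 0.18 for day 10 against day 1 in WFYT025 of the middle season and to -0.01 instead of -0.31 for WFYT025 against CHT025 on day 1 of that season. Under it 8 small differences that were called with or without it turned their sign. SPS2 of WFYT025 in the middle season did so for day 10 against day 1 (-0.26). On day 1 of that season SPS2 of WFYT025 also did so against CHT025 (0.15) and against the mid-parent (0.19). SPS1 of WFYT025 turned against the mid-parent on day 10 of the middle season (-0.011). The season difference on day 10 turned for SPS6 in WFB (-0.20), SPS1 in WFYT025 (-0.10) and SPS8 in WFYT025 (-0.18). The season difference of the day change turned for SPS8 in WFYT025 (-0.28). Sign changes of differences called in neither fit were not counted. Members whose day change differed between the hybrid and its parents were 3 positive and 7 negative under quantile normalization, instead of 5 and 2 in the 20 tests. The causes of these shifts were not tested.

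The main fit did not pair libraries by replicate number. Same-numbered libraries of day 10 and day 1 correlated in their deviations by -0.195 to 0.248, with 3 of 18 pairs above 0.1. Those of the 2 seasons correlated by -0.0777 to 0.352, with 6 of 18 above 0.1, and those of different varieties by -0.293 to 0.19, with 4 of 36 above 0.1. These correlations cannot settle whether same-numbered libraries shared a source. With the replicate block, day 10 against day 1 gave 25 higher and 15 lower calls, against 27 and 15 without it, and 6 member calls were lost and 1 gained over all comparisons. Leaving out each library in turn gave 25 to 28 higher and 14 to 17 lower calls of the 60 day tests. It turned the direction of no member difference that was called with or without that library. Depth is unknown, so values near 0, as for SUS1 and SUS3, carry no counting error.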
